A study of Mus musculus with 6 samples.

Results

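The heat shock and unfolded protein response genes described here are 36 chaperones, folding enzymes and stress regulators, taken by gene symbol from the 23067 genes of the deposited expression table. All 36 had a row. They fall into 16 genes of the cytosolic and mitochondrial chaperone system and 20 genes of the endoplasmic reticulum (ER), the compartment in which secreted and membrane proteins fold. The assay was bulk RNA sequencing, and the tissue was mouse dorsal striatum at postnatal day 21. The groups were 3 libraries from homozygous Lrrk2 G2019S knock-in mice, which carry a kinase mutation known from familial Parkinson's disease on both alleles (Lrrk2G2019S/G2019S), and 3 libraries from wild-type mice (Lrrk2WT/WT). The labels give no treatment, no strain and no statement on whether libraries of a genotype came from separate animals. The p-values below therefore weigh group differences against the spread between these libraries, which may be technical in part.

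All samples are titled male, but Xist, the RNA that silences the inactive X chromosome of female cells, stood at 27.2 to 39.3 FPKM in knock-in libraries and 31.4 to 33.0 FPKM in wild-type libraries, and 0 of 4 Y-linked genes looked up had a row, which goes against that label in every library. FPKM is the number of fragments scaled to transcript length and to the size of the library, so levels of different genes can be set side by side. The tissue label was borne out by striatal projection neuron genes, whose summed level was 2743 to 3027 FPKM in knock-in libraries and 2742 to 2878 FPKM in wild-type libraries over 12 genes. Lrrk2 itself averaged 11.9 ± 0.579 FPKM in knock-in and 11.3 ± 0.625 FPKM in wild-type striatum (SD, n = 3 each). The G2019S change is a point mutation, which gene-level values do not show, so the genotype labels could not be checked from them. Markers of neighbouring tissue differed between libraries, and in bulk samples fewer cells of a type and less RNA per cell cannot be told apart. Summed cortical excitatory neuron markers (12 of 12 in the table) were at 66.4, 48.4 and 11.6 FPKM in knock-in replicates 1 to 3, against 24.1, 12.6 and 11.5 FPKM in wild type replicates 1 to 3. Summed choroid plexus markers (6 of 6 in the table) reached 383 FPKM in wild type replicate 2 and 6.54 to 21.8 FPKM in the other 5 libraries. Knock-in replicate 3 had the lowest sums of blood, oligodendrocyte, astrocyte, microglia and endothelial markers. Summed oligodendrocyte markers (7 of 7 in the table, 0 called) were at 2718, 2862 and 2317 FPKM in knock-in replicates 1 to 3. In wild type replicates 1 to 3 they were at 3213, 3273 and 2878 FPKM, so every knock-in library lay below every wild-type library. The part of these differences in the results below was not tested.

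Heat shock proteins are chaperones that bind unfolded protein chains. HSP70 and HSP90 proteins do this with ATP, J proteins (the Dnaj genes) hand clients to HSP70, and nucleotide exchange factors release them again. When unfolded protein accumulates in the cytosol, the transcription factor HSF1 binds heat shock elements, repeats of the unit GAA and its reverse complement, and induces these genes. In the ER the sensors IRE1, PERK and ATF6 answer in the same situation, and their transcription factors XBP1, ATF4, CHOP and cleaved ATF6 induce ER chaperones, in part through the ER stress element.

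No member was called as different between genotypes. Of the 36 members, all of which had a mean of at least 1 FPKM and were tested, 0 were called at an adjusted p under 0.05 in limma on log2(FPKM + 1), while 0.0212% of the 14156 genes tested were called. At an unadjusted p under 0.05 the count was 0 of 36 members, against 4.27% of all genes tested. In 0 members did the 3 knock-in values all lie on one side of the 3 wild-type values, which 9.51% of all genes tested showed. Members were on average higher in knock-in striatum in 24 cases and lower in 12, while 43.6% of all genes tested were higher. The median log2 difference was 0.019, beside -0.014 over all genes tested. With median-of-ratios scaling of the libraries the split was 28 and 8, beside 7656 and 6494 over all genes. Without knock-in replicate 2 it was 13 and 23, beside 5453 and 8703 over all genes. The medians of that fit were -0.022 for members and -0.027 for all genes, so the members then lay near all genes. The largest mean differences were 0.19 for Hspb1 and -0.14 for Herpud1. The 95% intervals of the fit are on the scale of FPKM + 1, which narrows those of low genes, so they were converted to ratios of FPKM at the wild-type level. The converted interval lay between 0.75 and 1.33 for 31 of the 36 members. The 5 exceptions were Hspa1a (0.738 to 1.34), Hspa1b (0.67 to 1.52), Hspb1, Hspa5 and Manf. Every member had an adjusted p of 0.997 or 0.998 in this limma fit, and these are not repeated below.

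**Figure D1:**
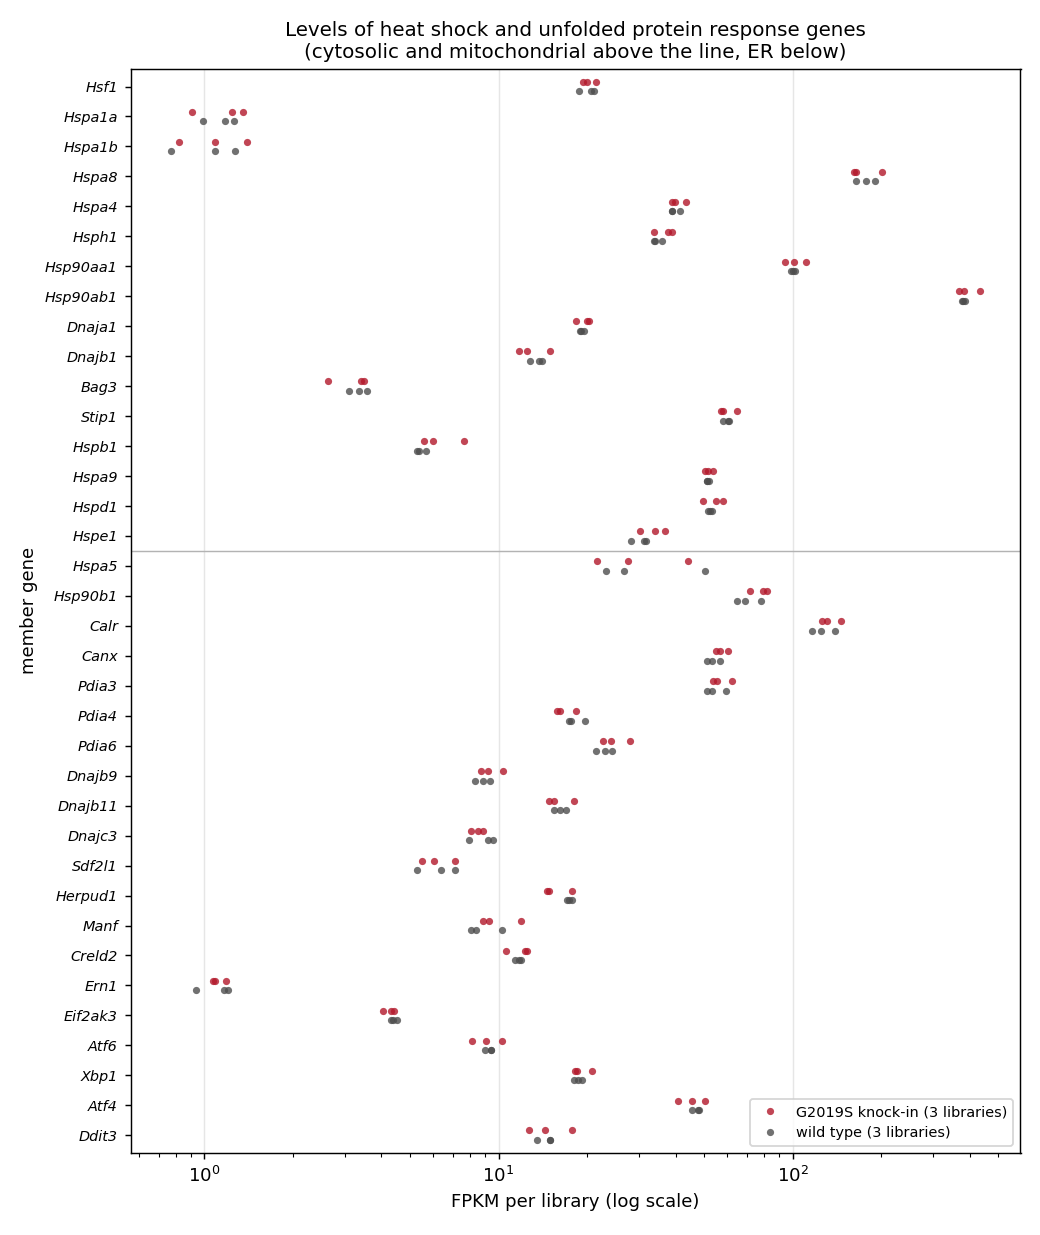
FPKM of each of the 36 members in each library on a log axis, with knock-in libraries in red above and wild-type libraries in grey below the line of each gene; 1 point is 1 library. Levels run from about 1 FPKM for Hspa1a, Hspa1b and Ern1 to 369 to 434 FPKM for Hsp90ab1, and the red and grey points of each gene overlap.

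**Figure D2:**
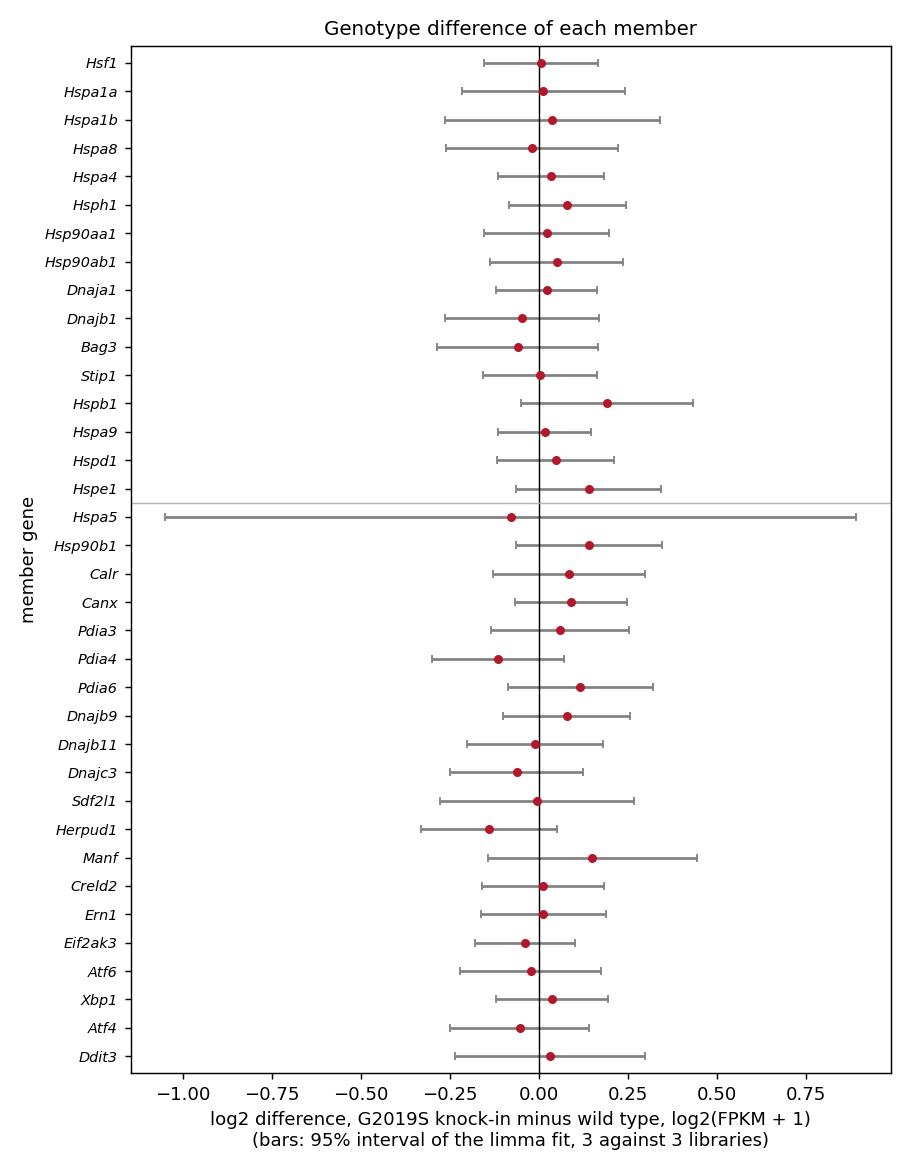
Log2 difference of each member (knock-in minus wild type, on the log2(FPKM + 1) scale) with the 95% interval of the limma fit over 3 and 3 libraries. All 36 intervals include 0, and that of Hspa5 is the widest, with ratios of FPKM + 1 from 0.483 to 1.86.

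Levels differed widely between members. The constitutive HSP90 gene Hsp90ab1 had the highest mean of all members, 388 FPKM over the 6 libraries, and 10 members had a mean above 50 FPKM. The stress-inducible HSP70 genes Hspa1a and Hspa1b and the sensor gene Ern1 had the lowest, down to 1.07 FPKM. Hsf1, which encodes the heat shock transcription factor, had 20.0, 21.5 and 19.3 FPKM in knock-in replicates 1 to 3, against 21.1, 20.6 and 18.8 FPKM in wild type replicates 1 to 3. Its log2 difference of 0.0064 (SE 0.07) was smaller than the spread between libraries.

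Among cytosolic HSP70 genes, Hspa8, the constitutive HSP70 that also uncoats clathrin vesicles, had 164, 202 and 162 FPKM in knock-in replicates 1 to 3, against 165, 190.0 and 178 FPKM in wild type replicates 1 to 3. Replicate 2 was the highest library of its genotype in both groups, and the groups overlapped (log2 difference -0.018, SE 0.10). Of the 50-base words of Hspa8, 38.6% also occur in other annotated transcripts. The inducible Hspa1a was at 1.24, 1.35 and 0.907 FPKM in knock-in, against 0.988, 1.18 and 1.26 FPKM in wild type. Its neighbour Hspa1b was at 1.08, 1.40 and 0.817 FPKM in knock-in, against 0.771, 1.27 and 1.08 FPKM in wild type. These near-identical genes lie next to each other on chromosome 17 (Hspa1a at 34969190 to 34972156, Hspa1b at 34956436 to 34959238, minus strand, GENCODE M21 on GRCm38). Of the 50-base words in their annotated transcripts, 58.8% of those of Hspa1a also occur in Hspa1b and 62.3% of those of Hspa1b in Hspa1a, so the counting could split their reads either way. Also, 564 exon bases of Hspa1a lie opposite the gene Gm20481 on the other strand, and the strand setting of the counting is not given in the sources used here. Their sum, which depends little on how reads were split between them, was 2.33, 2.75 and 1.72 FPKM in knock-in replicates 1 to 3, against 1.76, 2.45 and 2.34 FPKM in wild type replicates 1 to 3. Hspa4, an HSP110 protein that releases nucleotide from HSP70, averaged 40.7 ± 2.25 FPKM in knock-in and 39.7 ± 1.40 FPKM in wild-type libraries (SD, n = 3 each). Hsph1, the heat-inducible HSP110, had 33.7, 37.7 and 38.8 FPKM in knock-in replicates 1 to 3, against 34.1, 36.04 and 33.7 FPKM in wild type replicates 1 to 3. Its 2 highest values were knock-in, but knock-in replicate 1 was its lowest library, and the log2 difference of 0.08 (SE 0.07) was not called.

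Of the 36 members, 29 had a promoter sequence in a RefSeq-based table on GRCm38.p6, each window running from 250 bases before to the end of the first 50 bases of an annotated transcript. Hsf1, Hspa8, Hsp90aa1, Hsp90ab1, Hspa9, Atf6 and Manf were not among them. The windows were searched on both strands for a heat shock element of 3 units, GAANNTTCNNGAA or its reverse complement TTCNNGAANNTTC. Here and below, a member counted if any of its windows matched (34 windows for these 29 members), while shares of all windows count each window. The element occurred in windows of 3 members, Hsph1, Hspd1 and Hspe1, and in 0.603% of all 32851 windows in the table. The shorter core of 2 units, GAANNTTC or TTCNNGAA, which every such element also holds, occurred in 9 members, Hspa1a, Hspa1b, Hsph1, Dnaja1, Bag3, Hspb1, Hspd1, Hspe1 and Eif2ak3, and in 15.1% of all windows. A match describes these letters and not a bound site. The windows of Hspe1 and Hsph1 are shown, 5′ to 3′ on the strand of the gene, because they hold the full element, here in capitals.
Hspe1, chr1:55087898-55088197, plus strand: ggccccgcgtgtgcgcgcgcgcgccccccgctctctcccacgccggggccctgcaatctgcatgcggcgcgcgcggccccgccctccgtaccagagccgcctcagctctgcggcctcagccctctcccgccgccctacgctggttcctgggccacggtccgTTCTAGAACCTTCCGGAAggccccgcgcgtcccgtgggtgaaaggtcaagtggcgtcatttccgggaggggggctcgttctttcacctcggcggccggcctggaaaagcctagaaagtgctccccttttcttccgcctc
Hsph1, chr5:149636287-149636586, minus strand: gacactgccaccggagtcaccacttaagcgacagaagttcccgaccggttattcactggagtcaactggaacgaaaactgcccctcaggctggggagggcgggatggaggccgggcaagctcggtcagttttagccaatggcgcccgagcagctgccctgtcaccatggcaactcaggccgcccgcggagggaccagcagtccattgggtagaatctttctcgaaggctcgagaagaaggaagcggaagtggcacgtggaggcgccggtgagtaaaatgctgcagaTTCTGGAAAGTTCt
In Hspe1 the capitals are 2 overlapping elements, and the same bases lie in a window of Hspd1, which is transcribed the other way from the same region and shares 285 of its bases with this window. In Hsph1 the element lies after the transcript start.

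The 3 members with a full heat shock element had log2 differences of 0.05 to 0.14, with a median of 0.08. Set against the mean of wild type on the log2 scale, their median level was -0.038, 0.15 and 0.16 in knock-in replicates 1 to 3, against -0.020, 0.038 and -0.036 in wild type replicates 1 to 3, so 1 knock-in library lay below all 3 wild-type medians. For the 9 members with at least the core the median log2 difference was 0.038, and for the 3 cytosolic members with a window and no core (Hspa4, Dnajb1 and Stip1) it was 0.0023.

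Of the cytosolic HSP90 genes, which hold kinases and receptors in an activatable fold, Hsp90ab1 had 383, 434 and 369 FPKM in knock-in replicates 1 to 3, against 385, 380.2 and 377 FPKM in wild type replicates 1 to 3. Knock-in replicate 2 lay above every wild-type library and knock-in replicate 3 below every one, and the log2 difference was 0.05 (SE 0.08). The heat-inducible Hsp90aa1 averaged 102 ± 8.71 FPKM in knock-in and 100.2 ± 1.54 FPKM in wild type (SD, n = 3 each), with the same order of the knock-in libraries. Of its 50-base words, 47.5% also occur in transcripts of other genes, mostly those of Gm12346, so its level depends on how such reads were counted.

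The cytosolic co-chaperones, which bring clients to HSP70 and HSP90, had mean differences smaller than their spread. Stip1, which joins HSP70 to HSP90, had 57.8, 64.7 and 56.9 FPKM in knock-in replicates 1 to 3, against 60.7, 60.2 and 58.0 FPKM in wild type replicates 1 to 3. Bag3, an HSF1-induced exchange factor that sends clients to autophagy, was at 3.49, 3.40 and 2.64 FPKM in knock-in, against 3.56, 3.09 and 3.36 FPKM in wild type. Knock-in replicate 3 was its lowest library and the other knock-in libraries lay within the wild-type range. The J protein gene Dnaja1 averaged 19.6 ± 1.10 FPKM in knock-in and 19.2 ± 0.335 FPKM in wild type, and the heat-inducible Dnajb1 averaged 13.1 ± 1.69 and 13.5 ± 0.684 FPKM in the same order (SD, n = 3 each). Their log2 differences lay between -0.06 for Bag3 and 0.02 for Dnaja1.

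Hspb1, the small heat shock protein HSP27 (also called HSP25 in mice), which keeps unfolded proteins soluble without ATP, showed the largest mean difference. Hspb1 had 5.97, 7.64 and 5.60 FPKM in knock-in replicates 1 to 3, against 5.66, 5.30 and 5.36 FPKM in wild type replicates 1 to 3. Knock-in replicate 2 stood far above the other 5 libraries, knock-in replicate 3 lay just under wild type replicate 1, and the groups overlapped. The log2 difference was 0.19 (SE 0.10, unadjusted p = 0.104 and adjusted p = 0.997 in limma), with a converted 95% interval of the FPKM ratio from 0.959 to 1.41. Without knock-in replicate 2 it was 0.07. Of its 50-base words, 48.8% also occur in the pseudogene Hsp25-ps1, so part of its reads could have been counted there.

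The mitochondrial chaperones import and fold proteins of the matrix. Hspd1 and Hspe1 encode HSP60 and HSP10, which together form the folding chamber, and are read in opposite directions from the shared region printed above. Hspd1 had 49.6, 57.9 and 54.9 FPKM in knock-in replicates 1 to 3, against 51.4, 53.1 and 52.3 FPKM in wild type replicates 1 to 3. Hspe1 was at 30.2, 36.9 and 34.0 FPKM in knock-in, against 31.8, 31.2 and 28.3 FPKM in wild type. In both genes knock-in replicates 2 and 3 lay above every wild-type library, while knock-in replicate 1 lay below every wild-type library for Hspd1 and within their range for Hspe1. The log2 differences were 0.05 (SE 0.07) and 0.14 (SE 0.09), and that of Hspe1 was 0.07 without knock-in replicate 2. Pseudogenes and other genes share 39.7% of the 50-base words of Hspd1 and 18.4% of those of Hspe1, and 112 exon bases of the pair lie opposite each other. Hspa9, the mitochondrial HSP70 called mortalin, varied least of all members, at 51.9 ± 1.78 FPKM in knock-in and 51.3 ± 0.488 FPKM in wild type (SD, n = 3 each).

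The ER arm is led by Hspa5, which encodes BiP, the ER HSP70 that also holds the stress sensors inactive. It was the one member whose level differed strongly between libraries of the same genotype. BiP RNA stood at 44.2, 27.5 and 21.6 FPKM in knock-in replicates 1 to 3, against 23.1, 26.7 and 50.4 FPKM in wild type replicates 1 to 3. In each genotype 1 library was far above the other 2, namely knock-in replicate 1 and wild type replicate 3, and those values were chosen for description after they were seen. The coefficient of variation over the 6 libraries was 37.3%, against 2.36% to 23.0% for the other 35 members. Among the 4701 genes that averaged 10 FPKM or more, 1.11% varied as much or more, and their median was 6.70%. The mean log2 difference was -0.08 (SE 0.39), with a converted 95% interval of the FPKM ratio from 0.466 to 1.88, so ratios in either direction within that range were not excluded. It was -0.36 without knock-in replicate 1 and 0.25 without wild type replicate 3. No other ER chaperone followed this order. The sensor gene Ern1 did have its 2 highest values in knock-in replicate 1 and wild type replicate 3 (1.19 and 1.20 FPKM). Its level in wild type replicate 2 was close, at 1.16 FPKM. Dnajb4, a J protein gene outside the members, was also highest in knock-in replicate 1 and wild type replicate 3, at 6.36 and 5.03 FPKM. Bag6, another gene outside the members, had its 2 highest values in the same libraries, at 27.0 and 26.5 FPKM. Its level in knock-in replicate 2 was close, at 26.0 FPKM. Both genes were picked after their values were seen, and the share of all genes with this order was not counted. Hsp90b1, the ER HSP90 called GRP94, had 71.8, 81.7 and 79.5 FPKM in knock-in replicates 1 to 3, against 68.6, 77.9 and 64.6 FPKM in wild type replicates 1 to 3, so wild type replicate 3, the highest library for Hspa5, was the lowest for Hsp90b1. Hspa5 (chromosome 2, 34771970 to 34777547, plus strand, GENCODE M21 on GRCm38) shares 0 of its 50-base words with other annotated transcripts and 0 exon bases with another gene.

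The other 3 members among the ER chaperones and lectins had higher means in knock-in striatum, but the groups overlapped and none was called. Hsp90b1 had a log2 difference of 0.14 (SE 0.09), which was 0.08 without wild type replicate 3. Calr, the calcium-binding lectin calreticulin, had 131, 146 and 126 FPKM in knock-in replicates 1 to 3, against 125, 140 and 116 FPKM in wild type replicates 1 to 3 (log2 difference 0.09, SE 0.09). That difference was 0.024 without knock-in replicate 2 and 0.025 without wild type replicate 3. Canx, its membrane-bound relative calnexin, averaged 57.2 ± 2.73 FPKM in knock-in and 53.7 ± 2.91 FPKM in wild type (SD, n = 3 each). For Hsp90b1 and Calr replicate 2 was the highest library of each genotype and wild type replicate 3 the lowest of all.

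The ER stress element, which ATF6 and XBP1 bind together with NF-Y, was searched in the same windows as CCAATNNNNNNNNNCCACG on both strands. It occurred in 7 of the 29 members with a window, all of the ER arm, and in 0.119% of all windows in the table. They were Hspa5, Hsp90b1, Calr, Canx, Pdia6, Dnajc3 and Creld2. Each place is shown with 5 bases on either side, read in the direction of the motif, with the motif in capitals; positions are on GRCm38.p6.
Hspa5, chr2:34772025-34772043: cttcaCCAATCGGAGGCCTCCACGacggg
Hsp90b1, first place, chr10:86705638-86705656: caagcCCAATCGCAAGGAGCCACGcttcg
Hsp90b1, other place, chr10:86705533-86705551: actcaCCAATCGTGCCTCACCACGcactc
Calr, chr8:84847075-84847093: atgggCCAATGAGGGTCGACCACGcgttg
Canx, chr11:50325800-50325818: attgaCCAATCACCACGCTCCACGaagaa
Pdia6, chr12:17266491-17266509: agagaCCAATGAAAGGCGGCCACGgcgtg
Dnajc3, chr14:118937827-118937845: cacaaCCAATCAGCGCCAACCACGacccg
Creld2, chr15:88819520-88819538: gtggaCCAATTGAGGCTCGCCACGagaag
The whole windows of Hspa5 and Hsp90b1 follow, on the strand of the gene, because these 2 chaperones hold the element and yet were highest in different libraries.
Hspa5, chr2:34771840-34772139, plus strand: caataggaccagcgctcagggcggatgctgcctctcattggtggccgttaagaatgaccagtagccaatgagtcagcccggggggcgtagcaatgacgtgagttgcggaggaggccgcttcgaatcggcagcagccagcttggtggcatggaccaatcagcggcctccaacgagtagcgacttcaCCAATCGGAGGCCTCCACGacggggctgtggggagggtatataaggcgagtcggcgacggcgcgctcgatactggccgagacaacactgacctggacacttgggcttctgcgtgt
Hsp90b1, chr10:86705395-86705694, minus strand: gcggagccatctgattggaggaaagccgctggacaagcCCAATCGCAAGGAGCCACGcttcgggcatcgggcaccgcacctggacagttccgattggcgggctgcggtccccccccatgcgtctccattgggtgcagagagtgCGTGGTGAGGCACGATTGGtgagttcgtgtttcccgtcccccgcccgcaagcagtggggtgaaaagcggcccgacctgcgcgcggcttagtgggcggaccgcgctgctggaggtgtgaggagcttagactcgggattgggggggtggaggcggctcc
The second run of capitals in Hsp90b1 is the element on the opposite strand.

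Genes with and without the element overlapped in their genotype differences. For those with it, log2 differences ran from -0.08 to 0.14 with a median of 0.09, and 5 of 7 were positive. The 11 other ER members with a window ran from -0.14 to 0.08 with a median of -0.0051, and 5 of 11 were positive. The difference between these lists was not tested. Without Hspa5, the median level of the 6 remaining genes with the element stood 0.034, 0.15 and 0.038 from the mean of wild type in knock-in replicates 1 to 3, against -0.027, 0.093 and -0.060 in wild type replicates 1 to 3, with replicate 2 highest in both genotypes. The UPR element TGACGTGG occurred in 0 members and in 0.676% of windows, and the amino acid response element TTGCATCA, a site for ATF4, in Herpud1 and in 0.895% of windows.

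**Figure D3:**
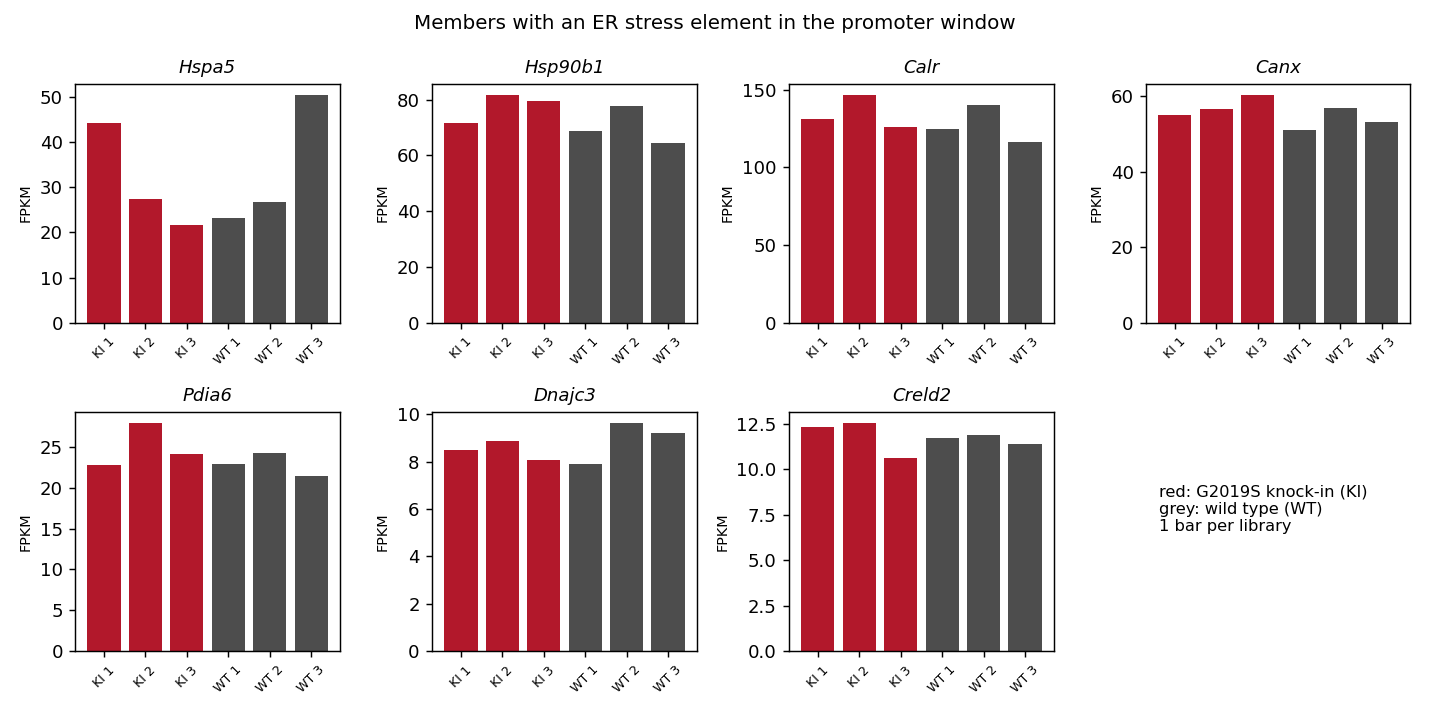
FPKM per library (1 bar each, axis from 0) of the 7 members with an ER stress element in the promoter window, knock-in in red and wild type in grey. Hspa5 is high in knock-in replicate 1 and wild type replicate 3 (44.2 and 50.4 FPKM), an order that none of the other 6 genes shows.

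The protein disulfide isomerases, which form and shuffle disulfide bonds, had mean differences of both signs, none of them called. Pdia3, the partner of calnexin and calreticulin, had 53.4, 62.2 and 55.2 FPKM in knock-in replicates 1 to 3, against 53.2, 59.2 and 51.3 FPKM in wild type replicates 1 to 3. Pdia4 was at 15.8, 18.3 and 16.2 FPKM in knock-in, against 17.3, 19.8 and 17.6 FPKM in wild type, a log2 difference of -0.11 (SE 0.08). Knock-in replicates 1 and 3 lay below every wild-type library and knock-in replicate 2 within their range. Pdia6 averaged 24.9 ± 2.67 FPKM in knock-in and 22.9 ± 1.42 FPKM in wild type (SD, n = 3 each), a log2 difference of 0.12 (SE 0.09), which was 0.036 without knock-in replicate 2.

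Among the partners of BiP, Dnajb9, a J protein (ERdj4) that represses the sensor IRE1, had 8.72, 9.18 and 10.3 FPKM in knock-in replicates 1 to 3, against 8.33, 8.87 and 9.33 FPKM in wild type replicates 1 to 3. Dnajb11 (ERdj3), which is secreted with its clients under stress, was at 14.9, 18.0 and 15.4 FPKM in knock-in, against 16.2, 16.9 and 15.4 FPKM in wild type. Dnajc3 (p58IPK), an inhibitor of PERK, averaged 8.47 ± 0.408 FPKM in knock-in and 8.90 ± 0.886 FPKM in wild type, and Sdf2l1 averaged 6.21 ± 0.813 and 6.25 ± 0.919 FPKM in the same order (SD, n = 3 each). All 4 ranges overlapped between genotypes.

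Of the factors that ER stress induces for degradation and secretion, Herpud1, which recruits the degradation machinery at the ER membrane, had the largest mean difference towards lower levels in knock-in. Herpud1 had 14.6, 17.8 and 14.9 FPKM in knock-in replicates 1 to 3, against 17.4, 17.1 and 17.7 FPKM in wild type replicates 1 to 3. Knock-in replicates 1 and 3 were the lowest of all 6 libraries and knock-in replicate 2 was the highest. The log2 difference was -0.14 (SE 0.08). Without knock-in replicate 2 it was -0.23, still not called (adjusted p = 0.664 in limma). Manf, a secreted factor with trophic effects on dopamine neurons, averaged 10.02 ± 1.64 FPKM in knock-in and 8.90 ± 1.21 FPKM in wild type, and Creld2, another secreted ER protein, averaged 11.8 ± 1.06 and 11.7 ± 0.244 FPKM (SD, n = 3 each). Gene overlaps limit some of these levels, since the strand setting of the counting is unknown: exon bases that lie opposite another gene number 857 in Dnaja1, 415 in Hsp90b1, 485 in Eif2ak3, 312 in Manf and 81 in Ddit3.

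The sensors of unfolded protein and their transcription factors had mean log2 differences between -0.05 and 0.04. Ern1, which encodes IRE1, averaged 1.11 ± 0.064 FPKM in knock-in and 1.10 ± 0.141 FPKM in wild type (SD, n = 3 each). Eif2ak3, which encodes PERK, the kinase that slows translation, had 4.30, 4.41 and 4.06 FPKM in knock-in replicates 1 to 3, against 4.36, 4.52 and 4.29 FPKM in wild type replicates 1 to 3. Its converted 95% interval of the FPKM ratio was 0.858 to 1.09. Atf6, whose protein is cut in the Golgi to free a transcription factor, was at 9.09, 8.10 and 10.3 FPKM in knock-in, against 8.98, 9.45 and 9.42 FPKM in wild type. It was the 1 member with its lowest value in knock-in replicate 2. Atf4, translated when PERK is active, had 45.4, 50.5 and 40.8 FPKM in knock-in replicates 1 to 3, against 47.8, 45.6 and 48.0 FPKM in wild type replicates 1 to 3. Xbp1, whose RNA IRE1 splices, averaged 19.2 ± 1.43 FPKM in knock-in and 18.6 ± 0.571 FPKM in wild type, and Ddit3, which encodes the pro-apoptotic factor CHOP, averaged 14.9 ± 2.58 and 14.5 ± 0.846 FPKM (SD, n = 3 each). Splicing of Xbp1, cleavage of ATF6 and phosphorylation of PERK are not visible in these gene-level values.

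A single library stood out across the members. Knock-in replicate 2 held the highest value of 24 of the 36 members (66.7%), where it held the highest value of 24.7% of all genes tested. It lay above all 3 wild-type libraries for 26 members (72.2%, against 31.7% of all genes tested), 14 of 16 in the cytosolic and mitochondrial arm and 12 of 20 in the ER arm. Knock-in replicate 1 held the highest value of 0 members, against 11.8% of all genes tested, and knock-in replicate 3 held the lowest of 12 (33.3%), against 32.0%. The members' median distance from the mean of wild type was -0.014, 0.13 and -0.053 on the log2 scale in knock-in replicates 1 to 3, against -0.014, 0.036 and -0.015 in wild type replicates 1 to 3. Over all genes tested the same median was 0.0093 in knock-in replicate 2, so the shift of the members exceeded that median. These comparisons with all genes were not matched for level. A mean of at least 5 FPKM was reached by 31 of the 36 members and by 7792 of the 14156 genes tested. By role, the median in knock-in replicate 2 was 0.14 for cytosolic HSP70 and HSP110 genes, 0.17 for HSP90 genes, 0.086 for cytosolic co-chaperones, 0.15 for mitochondrial chaperones, 0.14 for ER chaperones and lectins, 0.19 for disulfide isomerases, 0.099 for partners of BiP, 0.094 for ER stress-induced factors, 0.15 for UPR transcription factors and -0.0089 for the sensors. These roles hold 2 to 5 genes each, and differences between them were not tested. Cortical markers were also high in knock-in replicate 2, at a summed 48.4 FPKM, but higher still in knock-in replicate 1 at 66.4 FPKM, where the members' median was -0.014. Striatal projection neuron markers summed to 2903 FPKM in knock-in replicate 2, within the range of the other libraries. Blood and endothelial markers had their highest sums in knock-in replicate 2, at 1479 and 86.4 FPKM. The next highest sums were those of wild type replicate 1, at 1445 and 84.0 FPKM. The part of tissue makeup in this pattern was not tested. Without knock-in replicate 2, 13 members were on average higher in knock-in and 23 lower, with a median of -0.022, and 0 were called. Over all genes tested that fit gave 5453 higher and 8703 lower, with a median of -0.027.

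**Figure D4:**
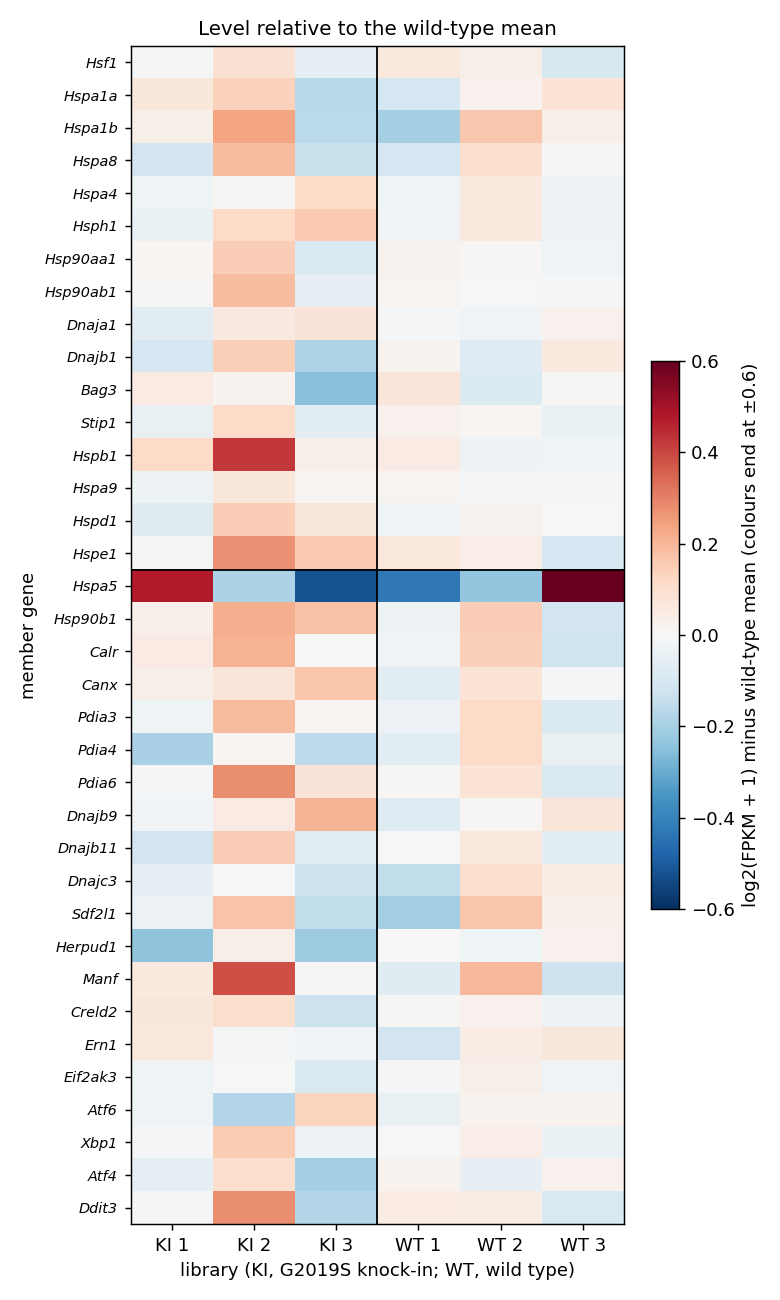
Level of each member in each library relative to the wild-type mean on the log2(FPKM + 1) scale, red above and blue below, knock-in libraries left of the vertical line and the cytosolic and mitochondrial arm above the horizontal line. The column of knock-in replicate 2 is red for most members (median 0.13), while the Hspa5 row is red in knock-in replicate 1 and wild type replicate 3.

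**Figure D5:**
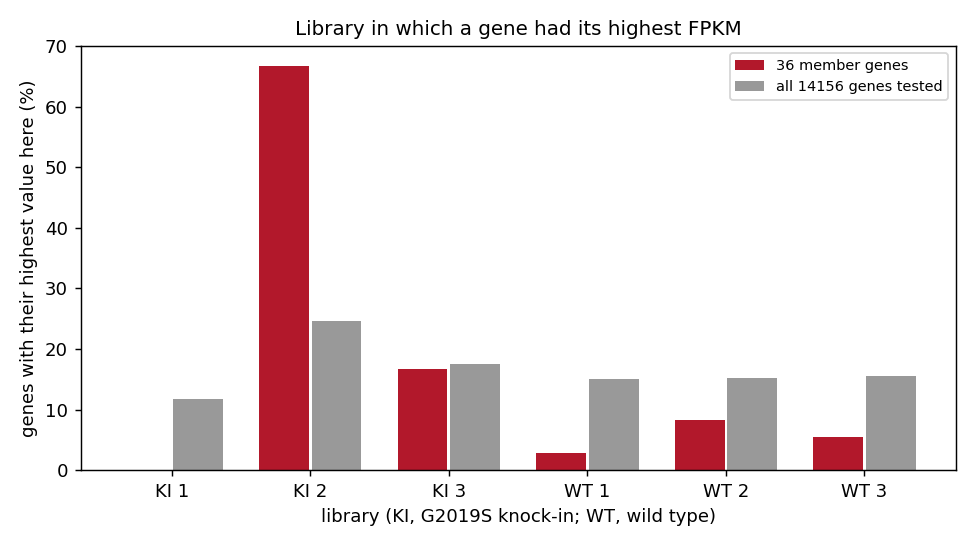
Percentage of the 36 members (red) and of all 14156 genes tested (grey) that had their highest FPKM in each library. Knock-in replicate 2 held 66.7% of members and 24.7% of all genes, and knock-in replicate 1 held 0% of members and 11.8% of all genes.

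A wider list of 129 further chaperone, ER degradation and stress response genes held no called gene either. Of the 121 with a mean of at least 1 FPKM, 0 were called, 62 were on average higher in knock-in and 59 lower (81 and 40 with median-of-ratios scaling), and the median log2 difference was 0.0012. At an unadjusted p under 0.05 the count was 3, and 11 of the 121 did not overlap between genotypes (4 higher and 7 lower in knock-in), beside the 9.51% of all genes given above. Among genes with a higher knock-in mean, those with the smallest p-values were Pdia5, a disulfide isomerase, at 4.27 ± 0.262 FPKM in knock-in and 3.73 ± 0.293 FPKM in wild type, the J protein gene Dnaja2, at 49.0 ± 3.01 and 44.6 ± 0.521 FPKM, and Dnajc21, another J protein gene, at 2.67 ± 0.152 and 2.42 ± 0.112 FPKM (SD, n = 3 each). In the other direction stood Wfs1, a regulator of ER calcium and of ATF6, at 41.9, 39.8 and 41.2 FPKM in knock-in replicates 1 to 3, against 48.0, 44.7 and 50.3 FPKM in wild type replicates 1 to 3, a log2 difference of -0.21 (SE 0.06, unadjusted p = 0.0117 and adjusted p = 0.997 in limma). Next came Txndc5, a disulfide isomerase, at 5.95 ± 0.372 FPKM in knock-in and 7.12 ± 0.519 FPKM in wild type, and Dnajb2, a neuronal J protein, at 14.0 ± 0.817 and 16.0 ± 0.369 FPKM (SD, n = 3 each). None of the 6 was called. Of the 18 tested genes of ER folding in the wider list, 6 were on average higher in knock-in and 12 lower (8 and 10 with median-of-ratios scaling), with a median log2 difference of -0.029.

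The TRiC chaperonin, the cytosolic folding chamber for actin and tubulin, also stood high in knock-in replicate 2. All 8 of its genes (Tcp1, Cct2, Cct3, Cct4, Cct5, Cct6a, Cct7 and Cct8) were on average higher in knock-in, by a median of 0.04, and 0 were called; with quantile normalization it was 7 of 8, and without knock-in replicate 2 it was 3 of 8, with a median of -0.0077. Knock-in replicate 2 was the highest library for 7 of 8 and lay above every wild-type library for 7. Cct2 had 43.1, 52.3 and 47.3 FPKM in knock-in replicates 1 to 3, against 47.5, 45.2 and 46.9 FPKM in wild type replicates 1 to 3. In contrast, of 22 tested genes of UPR signalling and the integrated stress response, knock-in replicate 2 was the highest library for 2, and 5 were on average higher in knock-in and 17 lower (8 and 14 with median-of-ratios scaling). Over all 121 tested genes of the wider list, knock-in replicate 2 was the highest library for 40 (33.1%), against 24.7% of all genes tested. TRiC and UPR signalling had the largest and smallest share, and the other roles of that list lay between 25.0% and 53.3%. The difference between these lists was not tested.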

How the data were processed

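The deposited table holds 1 FPKM value per gene and library, computed by the authors, per the file headers. Per the submitters' processing notes, the tools included HISAT2, StringTie, SAMtools and FastQC; versions, genome build, annotation and the strand setting of counting are not stated there. RNA was extracted with a Qiagen miRNeasy kit and libraries made with a TruSeq RNA kit, per the labels' protocols. Columns were matched to samples by the sample codes of the labels. FPKM keeps no read counts, so depth per library is unknown and precision was taken from the spread between libraries. Summed over genes, FPKM per library ranged between 314146 and 335508, and 0 values were exactly 0.

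The scale used was log2(FPKM + 1). It understates changes of genes at low levels. Tests covered every gene averaging 1 FPKM or more across all libraries and used limma 3.58.1 in R 4.3.3 (trended, robust prior variance, two-sided, Benjamini-Hochberg over 14156 genes). Differences are knock-in minus wild type. The fit was tested on simulated data. Promoter windows are from a RefSeq table on GRCm38.p6, matched by symbol. Gene positions, exon overlaps and shared 50-base words are from GENCODE M21, matched by gene identifier. No protein sequences were used here.

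All 36 members could be named. Values in every library are given for the highest and the smallest-p member of each role, and for Hspa1a, Hspa1b and Hspa5, chosen after their values were seen. Of the wider list, the 3 smallest p-values in each direction were named. Cct2, Dnajb4 and Bag6 were also chosen after their values were seen. The members and lists were chosen with earlier results of these data known. Alternatives were another pseudocount, other filters, other scalings, a constant prior variance, a replicate block and each library left out.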

Additional observations from a re-analysis of the deposited data

How the results depend on the processing

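No member and no gene of the wider list was called in any of the 13 alternatives. The lowest adjusted p of a member over the 7 alternatives that keep all libraries was 0.971 (no filter on low values), and 0.664 with a library left out (without knock-in replicate 2). Over all tested genes, 3 were called, 2 to 4 under the alternatives that keep all libraries and 3 to 14 with a library left out (among knock-in libraries 11 when leaving out replicate 1, 14 for replicate 2 and 6 for replicate 3; among wild-type libraries 8 for replicate 2). The replicate numbers of the titles shared no source that the labels state. Same-numbered libraries correlated in their deviations from the group means, over tested genes, at -0.011, -0.074 and 0.19 for numbers 1 to 3, so the libraries were not treated as paired. With a replicate block 2 genes and 0 members were called, and not every library correlated best with its own number.

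Directions of members, none of which was called, turned under scaling in a few cases. With median-of-ratios scaling the difference was 0.0085 for Hspa8, 0.014 for Dnajb11, 0.018 for Sdf2l1 and 0.0014 for Atf6, and with quantile normalization it was -0.016 for Stip1 and 0.013 for Sdf2l1. Leaving out each library in turn changed the direction of 23 members at least once, 13 of them without knock-in replicate 2. The ranges over these 6 fits were -0.0408 to 0.039 for Hsf1, -0.0488 to 0.102 for Hspa1a, -0.0624 to 0.137 for Hspa1b, -0.121 to 0.0395 for Hspa8, -0.01 to 0.0637 for Hspa4, -0.0414 to 0.0796 for Hsp90aa1, -0.0189 to 0.0982 for Hsp90ab1, -0.00589 to 0.067 for Dnaja1, -0.141 to 0.0217 for Dnajb1, -0.115 to 0.0373 for Bag3, -0.0549 to 0.0364 for Stip1, -0.00896 to 0.0393 for Hspa9, -0.00178 to 0.108 for Hspd1, -0.357 to 0.252 for Hspa5, -0.00449 to 0.118 for Pdia3, -0.0903 to 0.0405 for Dnajb11, -0.106 to 0.0781 for Sdf2l1, -0.0293 to 0.0822 for Creld2, -0.0443 to 0.0468 for Ern1, -0.102 to 0.0539 for Atf6, -0.0204 to 0.0713 for Xbp1, -0.128 to 0.0221 for Atf4 and -0.0921 to 0.135 for Ddit3. The other 13 members kept their sign in these fits, but each moved by over 1.5 times in at least 1 of them, with ranges of 0.0411 to 0.14 for Hsph1, 0.0745 to 0.269 for Hspb1, 0.0735 to 0.214 for Hspe1, 0.0831 to 0.216 for Hsp90b1, 0.0238 to 0.157 for Calr, 0.054 to 0.132 for Canx, -0.177 to -0.058 for Pdia4, 0.0365 to 0.178 for Pdia6, 0.0164 to 0.127 for Dnajb9, -0.136 to -0.0104 for Dnajc3, -0.227 to -0.0904 for Herpud1, 0.0319 to 0.249 for Manf and -0.0586 to -0.0106 for Eif2ak3. The median of the cytosolic and mitochondrial arm ran from -0.027 to 0.039 and that of the ER arm from -0.022 to 0.06 over the same fits. FPKM values carry no depth, so the low levels of Hspa1a, Hspa1b and Ern1 could not be given a counting error.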
